A study of Mus musculus with 4 samples.

Results

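The one-allele segments described here are 11 stretches of 5 autosomes of the wild-type JB1 line, not all such stretches of that line. In them most allelic reads of wild-type cells came from the maternal JF1 copy, while *Zfp57*-/- cells read both copies. The name is loosest for the 0.55-Mb segment of chromosome 8, with wild-type JF1 shares of 0.848 and 0.854. The segments were chosen on the allelic counts of these same libraries, as runs of neighbouring genes with a JF1 share near 1 in wild-type and near 0.5 in *Zfp57*-/- cells, so the shares below are a description and carry no test. On GRCm38 they lie on chromosome 4 from 141.44 to 142.09 Mb, on chromosome 7 from 16.27 to 16.62, 45.57 to 46.09, 93.07 to 102.09, 112.95 to 114.12 and 118.1 to 119.0 Mb, on chromosome 8 from 70.86 to 71.41 and 87.46 to 108.97 Mb, on chromosome 9 from 82.82 to 84.13 and 107.74 to 111.28 Mb, and on chromosome 14 from 11.55 to 18.9 Mb. Their lengths run from 0.35 to 21.51 Mb and sum to 46.87 Mb. Of 1111 annotated genes with their midpoint inside, 525 had more than 8 bulk counts summed over the 4 libraries and are the members, out of 19995 such genes in all, and 586 had 8 counts or fewer.

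JB1 is a male mouse ESC line whose mother was JF1 and whose father was C57BL6/J (B6), and the *Zfp57*-/- line was derived from it. Cells of both lines were differentiated for 12 days in DDM medium, with 1 µM cyclopamine from day 2 to day 10, and stranded total RNA of 2 wild-type and 2 *Zfp57*-/- replicates was sequenced. All 4 libraries therefore share the hybrid background and the cyclopamine, and differ in genotype. Since each genotype was represented by a single line, genotype and line cannot be told apart, and the p-values measure the spread between replicates of these lines only.

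In a hybrid cell, a read can be assigned to a parent where it covers a position at which the strains differ, and most autosomal genes yield reads of both parents in similar amounts. Imprinted genes are a known exception. At many of them, though not all, one parental copy is silenced under the control of a methylated region. The zinc finger protein ZFP57 protects such regions by binding a methylated hexamer, TGCCGC. Allelic shares given here come from RNA, and the DNA of the lines was not analysed here.

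Promoters of 4 members are shown, as the letters of the B6 reference in the 250 bases before a transcription start site, for the member with most allelic reads (*Rps3*), the members with the smallest adjusted p among the higher (*Tdgf1*) and among the lower ones with at least 20 allelic reads (*Fam181b*), and the most deeply read member whose promoter holds the hexamer (*Rps15a*). They are from RefSeq (GRCm38.p6), run 5′ to 3′ on the gene's strand, and have the hexamer TGCCGC, or its reverse complement GCGGCA, in capitals. *Rps3* is at chr7:99483710-99483959, minus strand, *Tdgf1* at chr9:110946159-110946408, minus strand, *Fam181b* at chr7:93079629-93079878, plus strand, and *Rps15a* at chr7:118116148-118116397, minus strand.
Rps3: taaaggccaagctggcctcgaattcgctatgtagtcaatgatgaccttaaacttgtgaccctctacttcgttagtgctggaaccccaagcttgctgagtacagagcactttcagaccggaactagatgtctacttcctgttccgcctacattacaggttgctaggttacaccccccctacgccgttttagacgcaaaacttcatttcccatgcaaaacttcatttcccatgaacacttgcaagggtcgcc
Tdgf1: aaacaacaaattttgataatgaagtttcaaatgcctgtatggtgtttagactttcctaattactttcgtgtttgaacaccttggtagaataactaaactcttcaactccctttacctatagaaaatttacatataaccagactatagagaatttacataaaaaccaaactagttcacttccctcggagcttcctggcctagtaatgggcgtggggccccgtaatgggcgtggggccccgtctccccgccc
Fam181b: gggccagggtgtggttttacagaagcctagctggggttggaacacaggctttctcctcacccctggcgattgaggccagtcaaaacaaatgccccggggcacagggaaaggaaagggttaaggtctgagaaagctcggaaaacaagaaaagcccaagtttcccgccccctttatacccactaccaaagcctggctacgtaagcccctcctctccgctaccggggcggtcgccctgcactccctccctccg
Rps15a: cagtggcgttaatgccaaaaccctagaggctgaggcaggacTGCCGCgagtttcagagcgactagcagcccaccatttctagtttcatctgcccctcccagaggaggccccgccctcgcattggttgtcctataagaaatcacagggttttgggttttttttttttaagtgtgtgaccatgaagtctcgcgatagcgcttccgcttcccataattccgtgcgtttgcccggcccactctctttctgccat
A promoter was matched for 357 members, and 45 of them (12.6%) held the hexamer on either strand. Of the promoters of all 12588 tested genes that were matched, 13.4% did, and the median number of CG dinucleotides was 15 in both sets. Positions at which JF1 differs from B6 are not marked in these letters.

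The libraries held between 7663520 and 10337082 bulk counts and between 2837013 and 3826604 allelic counts. *Zfp57* had 392 and 249 counts in wild-type against 158 and 144 in *Zfp57*-/- cells (edgeR log2 fold change -1.19, adjusted p = 0.0225). All 8 neural markers examined were lower in the *Zfp57*-/- cells, their summed level falling from 1757 and 2100 to 323 and 306 CPM (counts scaled to a common library size). All 6 pluripotency markers were higher, at 4.21 and 7.73 in wild-type and 994 and 849 CPM in *Zfp57*-/- cells, with *Nanog* at 0 in both wild-type libraries. The 8 endoderm markers summed to between 1933 and 4122 CPM in every library, 1 of them passing the test, *Sox7*, which was lower. The 6 endothelial markers summed to between 53.2 and 86.5 CPM, 2 higher and 1 lower, and the 3 neural crest and 3 astroglia markers to at most 10.8. Of these last, *Foxd3* was higher (6 and 8 counts against 77 and 96), and *Tfap2a* (55 and 75 against 10 and 3) and *Aqp4* (10 and 11 against 1 and 1) were lower. In such bulk RNA, fewer cells of a type and less RNA per cell cannot be told apart.

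Over all members together, JF1 reads made up 0.987 and 0.988 of the allelic reads of wild-type cells, against 0.485 and 0.487 of those of *Zfp57*-/- cells. Across the autosomes outside the segments, the shares were 0.516 and 0.516 in wild-type against 0.506 and 0.505 in *Zfp57*-/- cells. The wild-type replicates thus differed from the *Zfp57*-/- replicates by far more than replicates differed from each other, in the direction by which the segments had been chosen.

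By segment, the wild-type share was 1 in both replicates for the 0.52-Mb and 1.17-Mb segments of chromosome 7 and the 1.31-Mb segment of chromosome 9, in which no B6 read was counted. It was 0.999 and 0.999 in the 3.54-Mb segment of chromosome 9, and as high in the 7.35-Mb segment of chromosome 14. The 9.02-Mb segment of chromosome 7 had 0.983 and 0.985. Both segments of chromosome 8 stood lower, at 0.848 and 0.854 for the 0.55-Mb segment and 0.925 and 0.94 for the 21.51-Mb segment. In the *Zfp57*-/- replicates the pooled shares of all 11 segments fell between 0.446, in the 1.17-Mb segment of chromosome 7, and 0.531, in the chromosome 14 segment, with no overlap with the wild-type values.

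**Figure D1:**
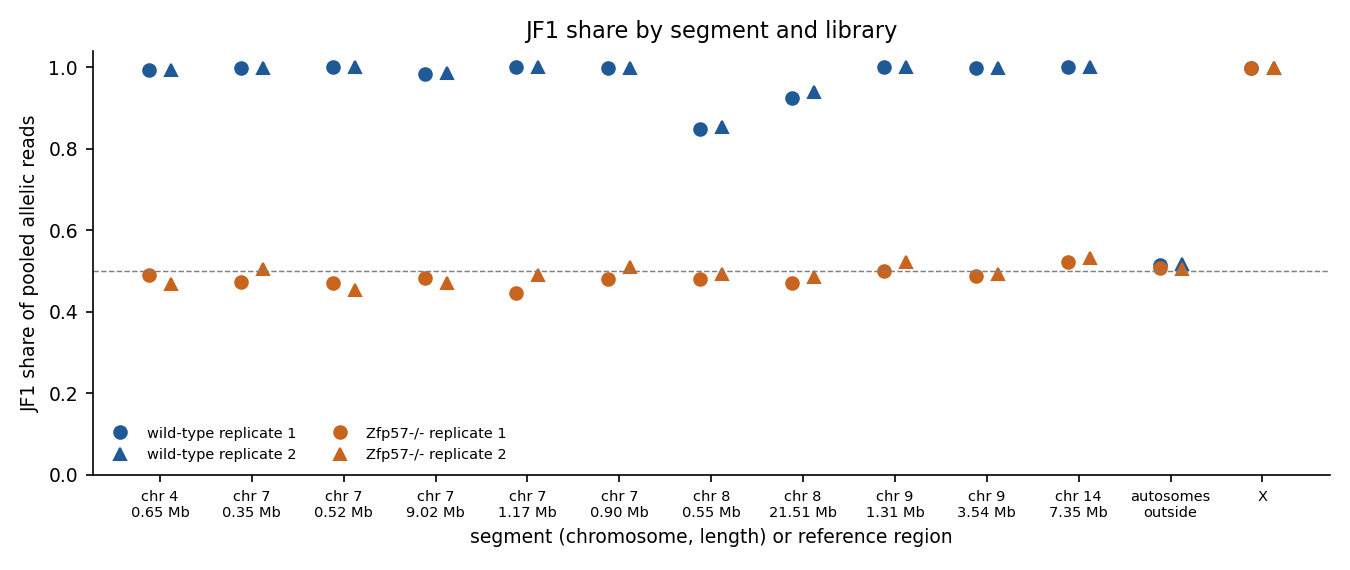
JF1 share of pooled allelic reads (y axis, 0 to 1) in each segment, on the autosomes outside and on the X chromosome (x axis), with a circle for replicate 1 and a triangle for replicate 2. The wild-type points lie between 0.848 and 1 in the segments and the Zfp57-/- points between 0.446 and 0.531, while on the autosomes outside all 4 libraries lie near 0.51.

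A share for a single gene was described where it had at least 20 allelic reads in each genotype, which 238 of the 525 members reached. In wild-type cells, 191 of these 238 members had no B6 read at all, on 21 to 7621 JF1 reads each, 208 had a share of at least 0.99 and 227 of at least 0.9. Among the members without a B6 read were *Rps3*, a protein of the small ribosomal subunit, with 3177 and 4444 JF1 reads, *Rps15a*, another, with 2156 and 2832, and *Phip*, a chromatin reader, with 2405 and 1354. *Top2b*, which encodes DNA topoisomerase II beta, had 1178 and 1399 JF1 reads and none from B6.

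In the *Zfp57*-/- replicates the same genes read both copies. *Rps3* had 3071 and 3026 JF1 beside 3318 and 3395 B6 reads, and *Phip* 409 and 455 beside 469 and 494. Across the 238 members the *Zfp57*-/- share had a median of 0.487, against 0.489 for 10333 autosomal genes outside with as many reads, and 233 members lay between 0.3 and 0.7. The exceptions above 0.7 were 3 members and those below 0.3 were 2, with the extremes at 0.296 and 0.808. The 2 *Zfp57*-/- replicates of a member with 20 reads in each differed by a median of 0.0561 (n = 206), and those of the genes outside by 0.0449 (n = 9235).

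The X chromosome, which these male cells have from the JF1 mother only, gave the rate at which reads were assigned to B6 where no B6 copy exists. That rate was 0.169% and 0.205% of the allelic reads in the wild-type replicates (95% Wilson intervals 0.142 to 0.2% and 0.179 to 0.235%). It was 0.277% and 0.294% in the *Zfp57*-/- replicates. In 6 of the 11 segments, the B6 percentage was at or below that of the X chromosome in both wild-type replicates. The chromosome 14 segment had 0.0381% and 0.0496% (2 of 5253 and 3 of 6051 reads), and the 3.54-Mb segment of chromosome 9 had 0.108% and 0.116%. The 0.52-Mb segment of chromosome 7, with 0 of 1502 and 0 of 2109 reads, had upper limits of 0.255% and 0.182%. These intervals cover counting error only.

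Over all members, 1.32% and 1.23% of the wild-type reads were B6 (743 of 56226 and 914 of 74152), above the X chromosome, and a few genes held most of them. *Cdh11*, a classical cadherin in the 21.51-Mb segment, alone held 25.8% of the 1657 B6 reads, and 6 genes held 74.5%. Without *Cdh11*, the B6 percentage of its segment was 1.6% and 1.34% in place of 7.48% and 6.02%. The 0.55-Mb segment of chromosome 8 had 15.23% and 14.65%, and 1 of its 9 described members had no B6 read. Without *Myo9b* and *Babam1* that segment still had 4.58% and 4.49%, above the X chromosome. *Cdh11* (chromosome 8, 102632095 to 102785642, ENSMUSG00000031673.6) had 332 and 304 JF1 and 210 and 217 B6 reads in wild-type cells, shares of 0.613 and 0.583, against 86 and 97 JF1 and 74 and 108 B6 reads in *Zfp57*-/- cells. Its midpoint, from which distances of genes are given here and below, lay 6261 kb from the nearer bound. *Cdh11* was at the end of the widest gap between described members of that segment, 5.28 Mb after the previous described member, the pseudogene *Gm5913*.

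The other members with a wild-type share under 0.9 numbered 10, and all had B6 reads in both wild-type replicates. *Sall1*, a zinc finger transcription factor, had shares of 0.471 and 0.607, on 78 wild-type reads in all. *Babam1*, a subunit of a BRCA1-associated complex, had 0.574 and 0.607 and lay 9.3 kb from the bound of the 0.55-Mb segment, and *Myo9b*, an unconventional myosin in the same segment, had 0.791 and 0.773. *Pold3*, a DNA polymerase delta subunit, had 0.812 and 0.779, on 264 and 364 JF1 and 61 and 103 B6 reads, 1988 kb inside the 9.02-Mb segment of chromosome 7.

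*Fam181b* and *Tmem51* were the outermost described members of their segments, 10.9 and 32.4 kb from a bound, and *Bbc3*, which encodes the pro-apoptotic protein PUMA, lay 43.3 kb from one. Their wild-type shares were 0.692, 0.831 and 0.872. *Csnk2a2*, a catalytic subunit of casein kinase 2, *Kifc3*, a kinesin, and *Gm5913* lay deep inside the 21.51-Mb segment, 8008, 7691 and 9968 kb from its bounds, with shares of 0.866, 0.882 and 0.75, the last on 20 reads. *Gm5913* was also the single member with a *Zfp57*-/- share over 0.8, on 26 reads, and none was under 0.2.

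At the bounds, 22 outermost described members faced 22 nearest genes outside with as many reads. Of the outermost members, 18 had a wild-type share of at least 0.99, and of the genes outside 1 did, while 13 of those lay between 0.4 and 0.6. Since the segments were chosen on these shares, this contrast was set by the choice. At the left bound of the 21.51-Mb segment, the share went from 0.482 for *N4bp1*, 613.3 kb outside, to 1 for *Cbln1* inside. At the left bound of the 0.52-Mb segment of chromosome 7, it went from 0.474 for *Ppp1r15a*, 45.4 kb outside, to 1 for *Bcat2*. The nearest described genes outside lay 7.3 to 5926.2 kb from the bounds, so how sharply the share changed between genes was not resolved. At 6 of the 22 bounds the gene outside lay between 0.6 and 0.9. Among them were *Tead1* at 0.876 and *Copb1* at 0.855 on the sides of the 1.17-Mb segment, and *Dhx34* at 0.842. *Kcnn1*, with its midpoint 7.3 kb outside the 0.55-Mb segment, reached across the bound and was at 0.752. *Kazn*, with its midpoint 80.9 kb beyond the chromosome 4 segment, had 439 JF1 reads and 0 B6 reads in wild-type cells. As in members, both copies were read in *Zfp57*-/- cells, with a share of 0.385. *Gm9531* and *Gm9800*, the nearest described genes before the 1.31-Mb and chromosome 14 segments, were at 0.0202 and 0 in wild-type and at 0.0704 and 0 in *Zfp57*-/- cells.

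Outside the segments, 143 of 10333 described autosomal genes had a wild-type share of at least 0.9 and a *Zfp57*-/- share from 0.2 to 0.8. *Kazn* was among the 143, of which 51 lay on the same 5 chromosomes. The 11 segments thus do not hold every gene with this pattern. Runs of at least 5 neighbouring described genes with it were counted after the data were seen, and 4 such runs, with 32 genes, lay outside. The longest held 14 genes over 0.74 Mb of chromosome 16, from *Ifnar2* to *Gm16310* (91372783 to 92112227), with 12315 JF1 and 11 B6 reads in wild-type cells and *Zfp57*-/- shares from 0.367 to 0.529. On chromosome 12, a run of 8 genes from *Meg3* to *Mir453* lies in a known imprinted domain, and chromosome 17 held 2 runs of 5 genes. Single genes outside with the pattern included the maternally expressed imprinted genes *H19*, *Grb10* and *Cdkn1c*, also singled out after their values were seen.

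**Figure D2:**
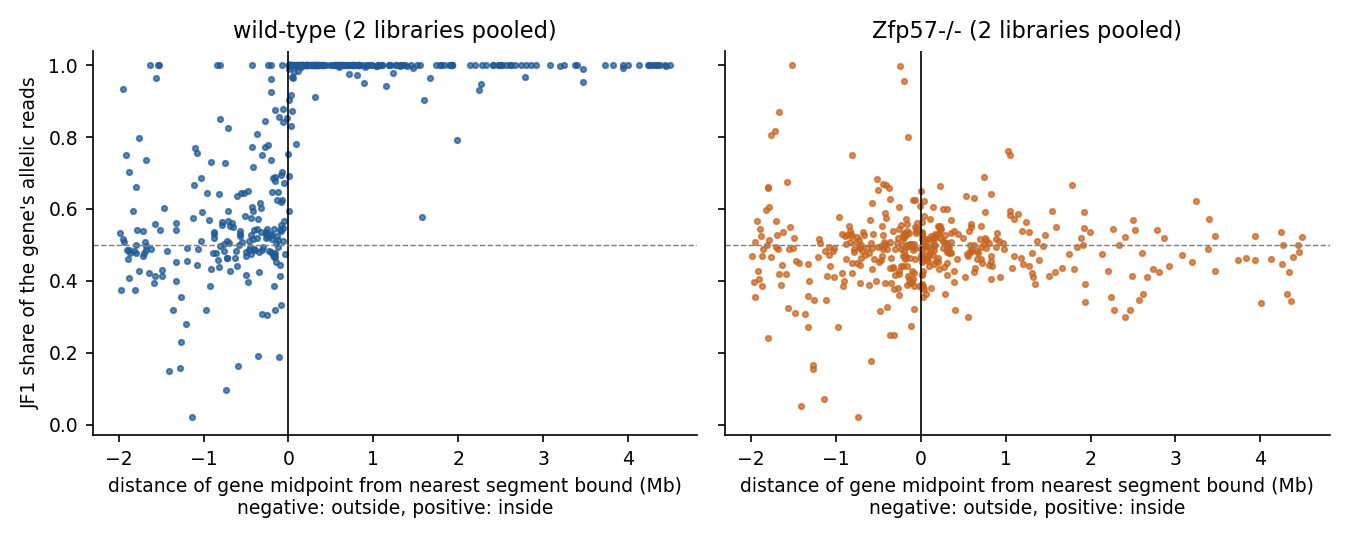
JF1 share of each described gene (y axis, 0 to 1, 2 libraries pooled) against the distance of its midpoint from the nearest segment bound in Mb (x axis, negative outside, positive inside, up to 4.6 Mb inside and 2 Mb outside), for wild-type (left) and Zfp57-/- cells (right). In wild-type cells most of the 221 members lie at 1 and 161 of the 208 genes outside between 0.3 and 0.7, and in Zfp57-/- cells both sides scatter about 0.5. Members further inside are not drawn, among them Cdh11, Kifc3, Csnk2a2 and Gm5913, which had wild-type shares under 0.9. The segments were chosen on these shares.

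How much of a segment could be read by allele differed between them. Outside the segments, 37.3% to 38.6% of the bulk counts of autosomal genes had an allelic read. The figure was 46.3% to 48.1% in the 9.02-Mb segment of chromosome 7, 13.4% to 15.0% in the 0.55-Mb segment and 6.09% to 6.59% in the 21.51-Mb segment of chromosome 8, with wild-type and *Zfp57*-/- libraries alike. In the 21.51-Mb segment, 146 of 209 members had no allelic read in any library, against at most 3 members in any other segment, and 33 were described.

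The longest run of neighbouring members without an allelic read held 77 genes over 3.79 Mb of that segment and 79880 bulk counts, and the longest run outside held 53 genes. For *Ctcf*, *Mt1*, *Mt2*, *Tox3* and the 146 members as a whole, the copy that was transcribed could thus not be read in either genotype, and their membership rests on the described genes around them.

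Levels per copy were described for the 288 members with at least 20 allelic reads over the 4 libraries, as log2 of *Zfp57*-/- over wild-type reads relative to the bulk library size with TMM factors and 0.5 reads added. JF1 reads were lower in *Zfp57*-/- cells for 249 of the 288 members, with a median log2 ratio of -1 (quartiles -1.61 and -0.43), that is 0.5 of the wild-type level. Over 13137 autosomal genes outside, the median was -0.06. The sum of both copies had a median of 0.02 over the members and 0 over the genes outside, and the bulk counts of these genes a median of -0.02 and 0. Relative to the bulk library, then, the JF1 reads of a typical member in *Zfp57*-/- cells stood at 0.5 of those in wild-type cells. The total RNA level of members had a median ratio near 1. With shares near 1 and near 0.5 set by the choice of segments, the first value follows from the second.

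Summed over all members, JF1 reads came to 6870 and 6992 CPM in wild-type and 3455 and 3565 in *Zfp57*-/- libraries. B6 reads came to 92 and 87.3 CPM in wild-type and 3667 and 3755 in *Zfp57*-/- libraries. Both copies together came to 6962 and 7079 against 7122 and 7320 CPM, and bulk counts to 22940 and 24220 against 24190 and 24560 CPM. The groups did not overlap for either copy alone, as the choice of segments had set. The sums of both copies and the bulk counts differed by less than 1.1 times between any 2 libraries.

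*Setd2*, the gene of a histone H3 methyltransferase, showed the same pattern. It had 2706 and 3127 bulk counts in wild-type against 2551 and 2597 in *Zfp57*-/- cells and did not pass the test (edgeR log2 fold change -0.23, adjusted p = 0.385). Its JF1 level had a log2 ratio of -1.09 and the sum of both copies one of -0.23. The order of segments by their median JF1 ratio ran from -1.56 in the chromosome 14 segment (25 members) to -0.42 in the 0.55-Mb segment of chromosome 8 (11 members). The median bulk ratio of these segments was -0.30 and 0.37.

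**Figure D3:**
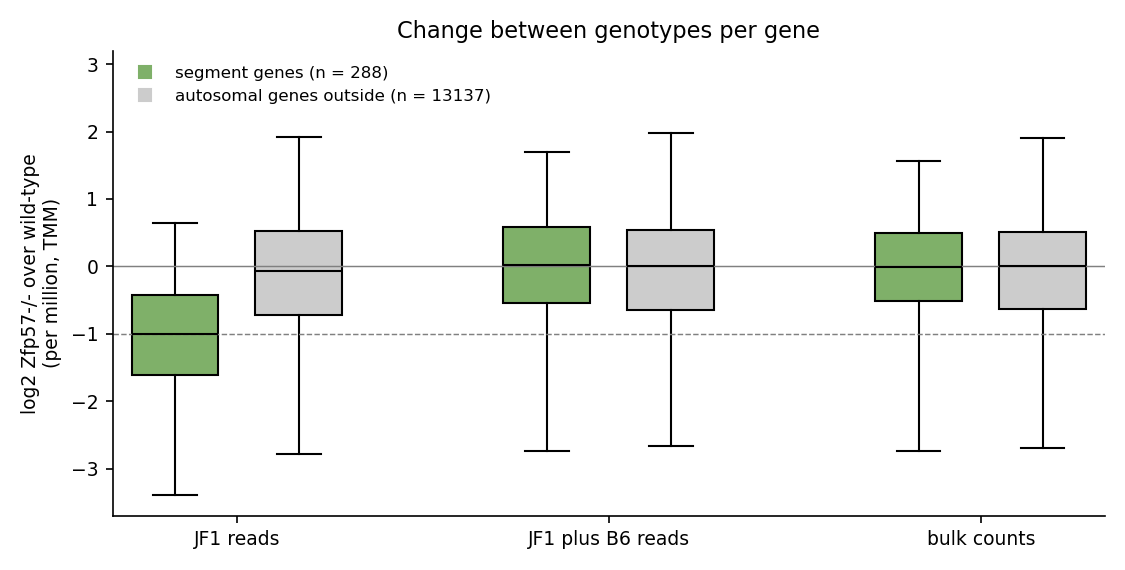
Log2 ratio of Zfp57-/- over wild-type levels (y axis, relative to the bulk library size) of JF1 reads, JF1 plus B6 reads and bulk counts (x axis) for 288 segment genes (green) and 13137 autosomal genes outside (grey), with boxes from quartile to quartile, a line at the median and whiskers from percentile 5 to 95. The green box of JF1 reads is centred on -1, which follows from the choice of segments and a total level with little median change. All other medians lie between -0.06 and 0.02.

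Total RNA levels, which the choice of segments did not use apart from the count minimum, were compared with edgeR's quasi-likelihood test over all genes. Of the 525 members, 132 (25.1%) passed an adjusted p of 0.05, against 27.6% of all 19995 genes tested, so that the members' share was close to the background. Higher in *Zfp57*-/- cells were 55 members, where the background of all genes was 13%, and lower were 77, where it was 14.6%. The median log2 fold change was 0.01 over the members and -0.01 over all genes. These counts depended on single libraries. They were 192 without wild-type replicate 1, 264 without wild-type replicate 2, 56 without *Zfp57*-/- replicate 1 and 62 without *Zfp57*-/- replicate 2, where 39.6%, 50%, 13.8% and 14.5% of all genes passed. Such a refit keeps 1 library in a group, which is assumed to vary as the 2 of the other group do, so that its p-values rest on the spread of that group alone. By direction, the members higher were 83, 141, 21 and 25 in the same order, with 19.1%, 25.6%, 6.2% and 6.42% of all genes, and those lower 109, 123, 35 and 37, with 20.5%, 24.5%, 7.58% and 8.09%. In a fit that had the replicate number as a block, 176 members and 34.9% of all genes passed, of which 83 members and 17.4% of all genes were higher and 93 members and 17.5% lower.

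Among the 288 members with 20 allelic reads, the JF1 copy alone was at a higher level in 25 of the 37 called higher and in 0 of the 44 called lower. Since the wild-type share near 1 and the *Zfp57*-/- share near 0.5 were set by the choice of segments, these counts follow from that choice and the bulk call together. Among the 207 not called, it was higher in 14, with a median log2 ratio of -0.99. The *Zfp57*-/- share had a median of 0.485 in the higher, 0.482 in the uncalled and 0.494 in the lower members, values near 0.5 that the choice of segments had set.

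Against 27.6% of all genes tested, called members were 1 of 8 and 1 of 6 in the 0.35-Mb and 1.17-Mb segments of chromosome 7, both higher, and 59 of 209 in the 21.51-Mb segment, with 22 higher and 37 lower. In the 1.31-Mb segment of chromosome 9, 1 was higher and 3 lower of 9, and in the chromosome 4 segment 2 were higher and 3 lower of 15. In the 9.02-Mb segment of chromosome 7, 10 were higher and 14 lower of 91, and in the 3.54-Mb segment of chromosome 9, 10 higher and 8 lower of 94. In the chromosome 14 segment, 0 were higher and 6 lower of 34, with a median log2 fold change of -0.38. In the 0.52-Mb segment of chromosome 7, 6 were higher and 2 lower of 29, with a median of 0.69. The 0.9-Mb segment of chromosome 7 had 1 higher and 3 lower of 17, and the 0.55-Mb segment of chromosome 8 had 1 higher and 1 lower of 13. By direction, 13% of all genes tested were higher and 14.6% lower. The difference between segments was not tested.

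**Figure D4:**
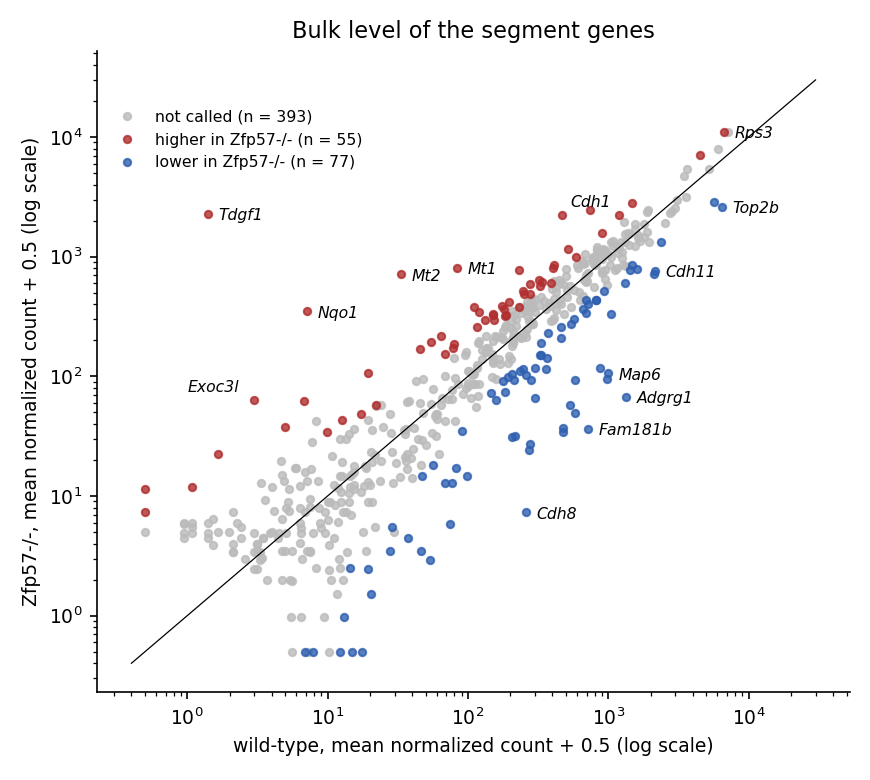
Mean normalized bulk count of each of the 525 members in wild-type (x axis) and Zfp57-/- cells (y axis), both on a log scale with 0.5 added, coloured by the edgeR call. The 55 higher members include Tdgf1, Nqo1, Mt1, Mt2 and Cdh1 above the diagonal, the 77 lower ones Adgrg1, Map6, Fam181b and Cdh8 below it, and 393 were not called.

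The functional lists below were made with earlier results of these data known, so their counts are a description. Neuronal and synaptic genes formed the list with most lower members. Of its 26 members, 15 were lower and 0 higher in *Zfp57*-/- cells, against 14.6% and 13% of all genes tested, and the median log2 fold change was -1.46, against -0.01 over all genes, beside the fall of all 8 neural markers given above, whose part in this count was not tested. *Adgrg1*, an adhesion receptor of neural progenitors, had 1223 and 1389 counts in wild-type against 63 and 73 in *Zfp57*-/- cells (log2 fold change -4.32, standard error 0.22, edgeR adjusted p = 3.1e-06), and the groups lay far apart. It had 7 allelic reads in all, too few for a share.

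*Map6*, a microtubule-stabilizing protein, had 875 and 1071 against 103 and 111 counts (log2 fold change -3.23, edgeR adjusted p = 6.47e-06). Its JF1 reads were 457 and 591 in wild-type against 36 and 30 in *Zfp57*-/- cells, and its B6 reads 12 and 24 against 26 and 30. *Celsr3*, an atypical cadherin of axon guidance, had 995 and 888 counts in wild-type against 101 and 89 in *Zfp57*-/- cells (log2 fold change -3.38, edgeR adjusted p = 1.64e-05). Both copies of *Celsr3* were read at low level in *Zfp57*-/- cells, with 21 and 15 JF1 and 13 and 14 B6 reads.

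*Cadps*, which primes dense-core vesicles for release, had 375 and 574 counts in wild-type against 31 and 38 in *Zfp57*-/- cells, and *Gprc5b*, an orphan receptor, had 515 and 612 against 50 and 49. *Gnao1*, the alpha subunit of the G protein Go, and *Cbln1*, a secreted synapse organizer outside the list, had log2 fold changes of -3.21 and -3.69. The groups did not overlap for any of these genes, which were named for their small adjusted p, so this adds nothing to the calls. *Dag1*, the dystroglycan gene and the most highly counted of the list, had 1544 and 2214 against 1484 and 1793 counts and did not pass (log2 fold change -0.23, edgeR adjusted p = 0.397), though it did without wild-type replicate 1 (adjusted p = 0.0327). *Fam181b*, a gene in no list, had 668 and 729 against 39 and 34 counts, a log2 fold change of -4.31.

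Of the 24 transcription factor genes, 2 were higher and 7 lower, against 13% and 14.6% of all genes tested, with a median log2 fold change of -0.68. *Tox3*, an HMG-box factor, had 511 and 632 counts in wild-type against 81 and 108 in *Zfp57*-/- cells (log2 fold change -2.64, edgeR adjusted p = 3.06e-05). *Zfp423*, a zinc finger factor of neural progenitors, had 757 and 1346 against 323 and 346, with 376 and 676 JF1 and no B6 reads in wild-type and 93 and 86 JF1 and 65 and 71 B6 reads in *Zfp57*-/- cells. The Iroquois homeobox genes *Irx5* and *Irx3* were lower, with 245 and 347 against 46 and 87 counts and 308 and 419 against 107 and 180. *Irx3* no longer passed without *Zfp57*-/- replicate 1 (adjusted p = 0.0759). *Ctcf*, the insulator protein, had 1041 and 1785 against 1460 and 1658 counts and did not pass (log2 fold change 0.12, adjusted p = 0.695). Without wild-type replicate 1 the log2 fold change of *Ctcf* was -0.09, and without wild-type replicate 2 it was 0.34 and passed (adjusted p = 0.0262).

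The cadherin genes of the 21.51-Mb segment moved in both directions, with 2 higher and 2 lower of 5, against 13% and 14.6% of all genes tested. *Cdh1*, which encodes E-cadherin of epithelia and pluripotent cells, rose from 395 and 535 to 1968 and 2539 counts (log2 fold change 2.23, standard error 0.20, edgeR adjusted p = 4.78e-05). Its reads went from 140 and 169 JF1 and no B6 in wild-type to 295 and 413 JF1 and 328 and 383 B6 in *Zfp57*-/- cells, so that the JF1 copy alone also stood higher. All 6 pluripotency markers rose in the same libraries, as given above, and their part in the levels of *Cdh1* and *Tdgf1* was not tested. *Cdh3*, P-cadherin, had 219 and 276 against 490 and 504 counts, and its call was lost without either *Zfp57*-/- replicate (adjusted p = 0.0948 and 0.0769).

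*Cdh11* fell from 2142 and 1997 to 673 and 873 counts (log2 fold change -1.50, edgeR adjusted p = 0.00108). *Cdh8*, a neuronal cadherin, had 348 and 121 counts in wild-type against 2 and 12 in *Zfp57*-/- cells, and its log2 fold change of -5.19 ranged from -6.90 to -3.98 with each library left out. *Cdh5*, the endothelial cadherin, singled out after its values were seen as the member of the list not yet named, had 163 and 635 against 389 and 444 counts, overlapping groups, and did not pass (log2 fold change 0.10, adjusted p = 0.876).

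All 3 metallothionein members, neighbours in the same segment that encode metal-binding proteins, were higher, where 13% of all genes tested were, and none had an allelic read. *Mt2* had 21 and 46 counts in wild-type against 768 and 668 in *Zfp57*-/- cells (log2 fold change 4.4, edgeR adjusted p = 7.6e-06), and *Mt1* had 69 and 95 against 844 and 777 (log2 fold change 3.27). *Mt3* had 0 in both wild-type libraries and 6 and 8 in *Zfp57*-/- cells, at least 2.27-fold higher against 3 counts per library. The *Mt3* call was lost with DESeq2 (adjusted p = 0.0898) and without *Zfp57*-/- replicate 2 (0.0769). These genes are close in sequence, and the counts rest on uniquely aligned reads.

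Among the secreted signals and their modulators, 2 of 9 members were higher and 3 lower, against 13% and 14.6% of all genes tested. *Tdgf1*, which encodes Cripto, a Nodal co-receptor of pluripotent cells, had 0 and 2 counts in wild-type against 2301 and 2301 in *Zfp57*-/- cells, the smallest adjusted p of all members (1.71e-06, edgeR). Both wild-type counts were in replicate 2. The ratio of its summed counts was 2235 (95% interval 618 to 18460, counting error only). Its *Zfp57*-/- reads were 258 and 305 JF1 and 462 and 403 B6, a share of 0.394, and its single wild-type allelic read was JF1. *Nkd1*, an inhibitor of Wnt signalling, fell from 596 and 1159 to 108 and 131 counts (log2 fold change -2.88), and *Tsku*, a secreted modulator of growth factors, rose from 109 and 126 to 348 and 345.

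Of the 23 mitochondrial and metabolic enzymes, 6 were higher and 3 lower, against 13% and 14.6% of all genes tested, with a median log2 fold change of 0.20. *Nqo1*, a quinone reductase of the oxidative stress response, had 3 and 11 counts in wild-type against 365 and 340 in *Zfp57*-/- cells (log2 fold change 5.61, edgeR adjusted p = 1.02e-05). Without wild-type replicate 2 the log2 fold change of *Nqo1* was 6.59. *Gpx1*, glutathione peroxidase, rose from 480 and 1026 to 2410 and 2526 counts (log2 fold change 1.71, edgeR adjusted p = 0.00084), with 79 and 208 JF1 reads in wild-type and 247 and 205 JF1 and 236 and 243 B6 reads in *Zfp57*-/- cells. *Bcat2*, the mitochondrial branched-chain aminotransferase, rose from 73 and 151 to 360 and 403. *Elovl4*, a fatty acid elongase, and *Impdh2*, of guanine nucleotide synthesis, passed at log2 fold changes of -1.14 and 0.93, and both calls were lost without either *Zfp57*-/- replicate, at adjusted p values of 0.058 and 0.0676 for *Elovl4* and of 0.124 and 0.0735 for *Impdh2*.

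Of the 16 ribosome, proteasome and RNA turnover genes, 5 were higher and 0 lower, against 13% and 14.6% of all genes tested, with a median log2 fold change of 0.50. *Rps3* rose from 5519 and 7668 to 11381 and 11116 counts (log2 fold change 0.74, standard error 0.19, edgeR adjusted p = 0.0172), and did not pass without *Zfp57*-/- replicate 1 or 2 (0.299 and 0.197). *Nip7* and *Grwd1*, of ribosome assembly, had log2 fold changes of 1.05 and 1.10 and did not pass without *Zfp57*-/- replicate 1 (0.0871 and 0.0811). *Rps15a* had 3068 and 4148 against 5670 and 5229 counts with an adjusted p of 0.0505. Ribosomal protein genes have many near-identical processed copies in the genome, so counts from uniquely aligned reads are uncertain for them.

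The 17 cell cycle, DNA replication and repair genes and the 15 chromatin factors mostly did not pass, with 1 higher and 2 lower in the first list and 1 higher and 1 lower in the second, against 13% and 14.6% of all genes tested. *Top2b*, which neurons use in place of topoisomerase II alpha, had 5390 and 7302 counts in wild-type against 2543 and 2765 in *Zfp57*-/- cells (log2 fold change -1.30, standard error 0.19, edgeR adjusted p = 0.000755). Its JF1 reads were 1178 and 1399 against 294 and 308, a log2 ratio of -2.15, beside 215 and 241 B6 reads in *Zfp57*-/- cells. *Setd6*, a lysine methyltransferase, rose from 64 and 59 to 244 and 193 counts. *Phip* had 6406 and 4281 against 2829 and 3025 counts and lost its call without either *Zfp57*-/- replicate (adjusted p = 0.124 and 0.106).

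Of the 9 extracellular matrix members, 2 were higher and 2 lower, against 13% and 14.6% of all genes tested. *Col7a1*, the collagen of anchoring fibrils, rose from 18 and 19 to 113 and 102 counts (log2 fold change 2.48, edgeR adjusted p = 0.00123). *Serpinh1*, the collagen chaperone HSP47, had 4995 and 9367 against 9558 and 12993 counts, and did not pass (log2 fold change 0.64, edgeR adjusted p = 0.0715), though it did with DESeq2 (0.0441), in the fit with a replicate block (0.0218) and, with the spread of the *Zfp57*-/- group alone, without wild-type replicate 1 (0.0144) or 2 (6.26e-11). Its wild-type reads were 2317 and 4175 JF1 and 0 and 1 B6. Higher members in no list included *Exoc3l*, an exocyst-like gene with 2 and 3 against 59 and 68 counts (ratio of summed counts 24.7, 95% interval 10.3 to 77.3), and *Fblim1*, a filamin-binding adaptor of cell junctions, with 159 and 307 against 799 and 765.

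**Figure D5:**
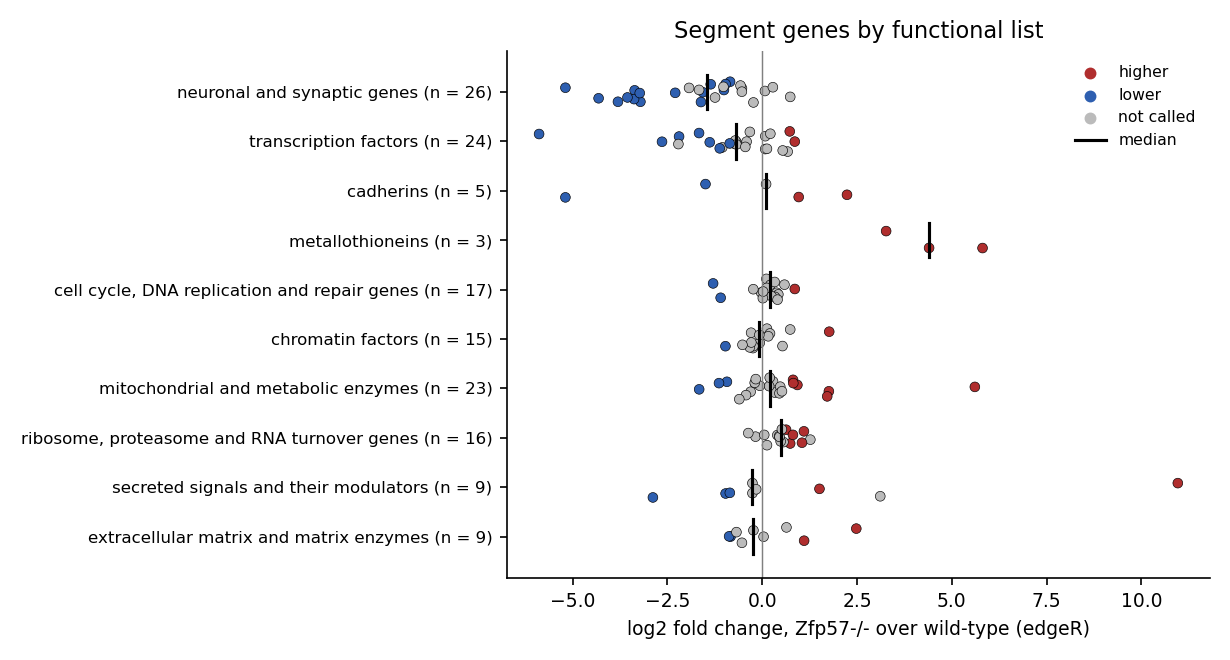
Log2 fold change of Zfp57-/- over wild-type (x axis) for the members of each functional list (y axis, with the number of members), coloured by the edgeR call, with a bar at the median. Medians run from -1.46 for neuronal and synaptic genes to 4.4 for metallothioneins, and the point furthest to the right is Tdgf1.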

How the data were processed

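RNA of 2 wild-type and 2 Zfp57-/- replicates at day 12 was measured. After trimming with Trimmomatic 0.36 and alignment by STAR 2.5.4a to GRCm38, the authors kept uniquely placed reads and deposited raw counts per GENCODE gene from featureCounts (Subread 1.6.0, strand used), and, after alignment to a genome masked at strain positions and SNPsplit, raw counts of JF1 and B6 reads per gene. Both tables are without normalization. No column of per-sample values was left out.

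Members are genes with their midpoint in a segment. The members, lists and tests were chosen with earlier results of these data known. Bulk counts of all genes with more than 8 counts over the 4 libraries were compared with edgeR 4.0.16 (R 4.3.3, robust quasi-likelihood test, TMM, Benjamini-Hochberg adjusted p of 0.05, no covariate), tested on simulated data. Allelic shares and levels were pooled or summed in Python 3.11.15 with pandas 2.3.3 and described without a test, with Wilson intervals at 95%. Replicates share numbers in the labels, which name no pairing, so the fit has no block. Alternatives were DESeq2 1.42.0 and its size factors, upper-quartile factors, other count and read minimums, a replicate block, whole gene spans and each library left out. Named are, per direction, the 10 members with the smallest adjusted p, up to 4 members and the most highly counted one of each list, the 2 members with most allelic reads of each segment, the genes at the bounds and members with a wild-type share under 0.9, and label checks.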

Additional observations from a re-analysis of the deposited data

How the results depend on the processing

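A refit without a library takes the spread from the other genotype alone. The 132 members called became 264 without wild-type replicate 2, and with each library left out they ranged from 56 to 264. Higher members (55) ranged from 21 to 141 and lower ones (77) from 35 to 123 in the same way, and higher members were 83 with the replicate block. With that block 176 members and 34.9% of all genes passed. Same-numbered libraries deviated together with r = 0.139 over 11736 genes, and the 2 pairs share only a number. DESeq2, its size factors, upper-quartile factors, both other count filters and whole gene spans kept all 3 counts within 1.5 times. The median log2 fold change over members ranged from -0.0356 to 0.0266 with a library left out. The pooled JF1 share, 0.987 in wild-type and 0.486 in Zfp57-/- cells, was 1 and 0.487 as a median of gene ratios and 0.487 in Zfp57-/- cells over members with 20 reads per genotype, and it ranged from 0.987 to 0.988 and from 0.485 to 0.487 with a library left out. Total bulk counts without factors moved the median of the genes outside to -0.17 for JF1 reads and -0.11 for both copies, and that of members to -1.11 and -0.0832, that is by a common shift of about 0.11. With libraries left out, the medians ranged from -1.03 to -0.94 for JF1 reads and from -0.00602 to 0.0922 for both copies of members, and from -0.0802 to -0.00806 and -0.02 to 0.05 for the genes outside. The B6 percentage in wild-type segments, 1.28% in the mean, was 0.952% without Cdh11 and 1.23% to 1.32% with a library left out. Of 489 refits of 49 named genes, 444 kept direction and call, 29 lost and 15 gained the call, and 1 reversed, Ctcf without wild-type replicate 1 (log2 fold change -0.0887, with a range up to 0.345 over the libraries left out). The depth of allelic reads limits the shares to 238 of the 525 members.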
